A study of Mus musculus with 4 samples.

Results

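The vascular wall cells of the mouse lung, pericytes and smooth muscle cells, were selected in the single-cell RNA sequencing of whole lungs as cells with a UMI of at least 3 of 7 genes, Cox4i2, Higd1b, Pdgfrb, Notch3, Myh11, Cnn1 and Des, and with no UMI of Ptprc, a leukocyte gene, or Cdh5, an endothelial gene. A UMI is a molecular barcode that counts 1 captured RNA molecule. The rule found 61 of 9363 cells, which are called mural cells here. It further divided them into 33 pericyte-like cells, with Cox4i2 or Higd1b and no Myh11, and 28 smooth-muscle-like cells, with Myh11 or Cnn1. Because these genes chose the cells, their levels in the mural cells are given as a description only, although they were fitted with the other genes.

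The libraries came from 2 WT mice, ERG fl/fl without Cre, and 2 ERG CKO mice, CDH5-CreER(T):ERG fl/fl. All 4 mice carried the floxed Erg alleles and received 5 daily injections of 0.5 mg tamoxifen, and whole lungs were dissociated enzymatically 90 days later. Cdh5 drives the Cre in endothelium, so the mural cells were neighbours of the targeted cells and not the targeted cells themselves. The ages of these 4 mice were not given in the sources used here, while the study describes the ERG CKO mice of other experiments as young. Erg was counted at 90.6 and 85.9 CPM (UMIs of a gene per 1e6 UMIs) in the endothelial cells of the WT libraries and at 103 and 82.5 CPM in those of the ERG CKO libraries. Whether the counted end of the Erg transcript lies outside the deleted part is not given in the sources used here, so this level does not check the deletion, and the groups are named as labelled.

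WT 1 held 19 mural cells, WT 2 held 23, ERG CKO 1 held 15 and ERG CKO 2 held 4. The whole libraries held between 11263911 and 18646776 UMIs, but the mural cells held 71826, 71801, 48114 and 9720 UMIs in the same order. A single UMI was thus worth 13.9 CPM in the mural cells of either WT library, 20.8 CPM in ERG CKO 1 and 103 CPM in ERG CKO 2. Values of ERG CKO 2 therefore carry the largest counting error, and a gene without a UMI there may lie anywhere up to 309 CPM, the level of 3 UMIs. Replicates of a group differed beyond sampling noise, with a chi-square per degree of freedom of 2.61 between the WT mural cells and 4.11 between the ERG CKO mural cells. Replicate 1 of each group expressed Xist in the mural cells (1030 and 1060 CPM) and replicate 2 of each group had no Xist UMI there. No mural cell shared its barcode with a cell of another library, and none was called a doublet by Scrublet.

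Pericytes wrap capillaries inside the basement membrane that they share with the endothelium, and smooth muscle cells form the contractile layer of larger vessels and airways. Endothelial PDGF-B recruits both through PDGFRB, and NOTCH3 on the mural cell responds to ligands on the endothelium. Lung pericytes are known for the mitochondrial proteins encoded by Cox4i2 and Higd1b and for a nitric oxide receptor whose cyclic GMP relaxes them, whereas mature smooth muscle is defined by the contractile proteins encoded by Acta2, Tagln, Myh11 and Cnn1.

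Detection of the rule genes in the mural cells follows from the rule and is given as a description beside the level of background RNA. Cox4i2, a subunit of the respiratory chain, was detected in 93.4% of the mural cells and in 0.357% of the lymphocytes, which should lack it, at a median depth of 2788 and 5735 UMIs per cell. Higd1b was detected in 77.0% of the mural cells and in 0.357% of the lymphocytes. Pdgfrb was detected in 77.0%, Notch3 in 73.8% and Des, an intermediate filament of contractile cells, in 82.0% of the mural cells, each against 0.490% or less of the lymphocytes. In the order WT 1, WT 2, ERG CKO 1 and ERG CKO 2, Cox4i2 was at 1587, 2618, 2640 and 2675 CPM and Pdgfrb at 1364, 1657, 1393 and 3189 CPM. Higd1b was at 752, 1421, 1102 and 926 CPM, Notch3 at 808, 738, 686 and 2160.5 CPM and Des at 571, 710, 727 and 412 CPM. No library lacked any of these 5 genes.

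The smooth muscle part of the label was not borne out for most of the Myh11-positive cells. Cnn1, calponin of mature smooth muscle, had no UMI in the mural cells and 7 UMIs in the whole data set. Myh11, smooth muscle myosin, was at 209, 209, 270 and 206 CPM, and 17 of the 28 Myh11-positive cells had a single Myh11 UMI, 9 had 2 and 2 had 3 or more, up to 7. Of the 28 cells, 25 also had Cox4i2 or Higd1b, and 18 had no UMI of Acta2 or Tagln. Acta2 was detected in 11.5% and Tagln in 19.7% of all mural cells, against 10.8% and 39.4% of the fibroblasts. The 2 subsets are therefore called Myh11-negative and Myh11-positive cells below, and no cell is called a smooth muscle cell. The Myh11-positive cells were also deeper, with a median of 4167 UMIs per cell against 2316 in the Myh11-negative cells, and the part of depth in the split was not tested.

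Acta2, Tagln, Hhip and Aspn were concentrated in 4 cells, whereas Cald1, caldesmon, and Mylk, myosin light chain kinase, were detected in 77.0% and 67.2% of the mural cells. Acta2 and Tagln are contractile genes, and Hhip and Aspn mark airway smooth muscle and myofibroblasts. Together they gave 319 UMIs in the mural cells, of which 290 lay in 4 Myh11-positive cells, 2 from WT 1 with 131 and 31 UMIs and 2 from ERG CKO 1 with 64 each. The cell with 131 UMIs held 60 of Hhip and 69 of Aspn but 2 of Acta2 and none of Tagln, and had no UMI of Cox4i2 or Higd1b. One ERG CKO 1 cell held 17 UMIs of Hhip with 34 of Tagln and also lacked Cox4i2 and Higd1b. The other pair held Cox4i2 beside Acta2 and Tagln, with 16 Cox4i2 UMIs in the WT 1 cell and 4 in the ERG CKO 1 cell. These 4 cells, the genes summed and Mylk were chosen after the values were seen, and the plot of these UMIs per cell shows how far they stood from the rest.

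**Figure D1:**
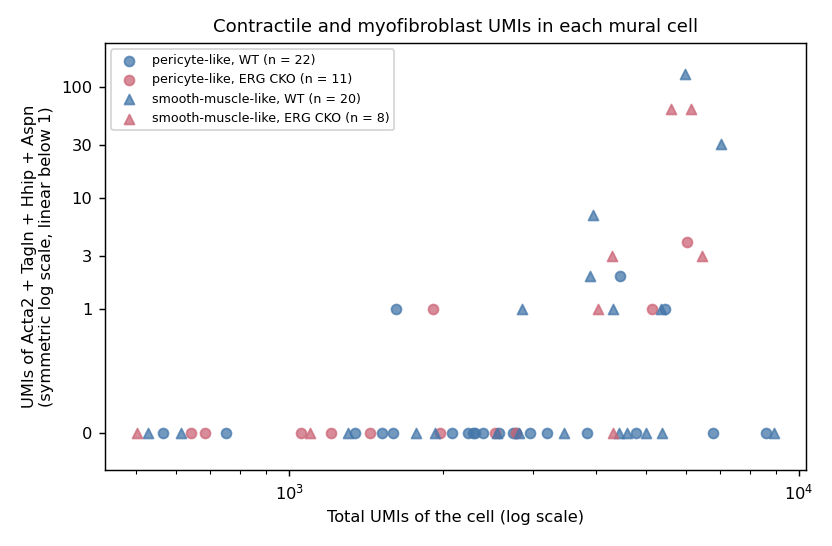
Summed UMIs of Acta2, Tagln, Hhip and Aspn (vertical axis) against all UMIs (horizontal axis) of each of the 61 mural cells, by subset and genotype. The 4 cells with 31, 64, 64 and 131 UMIs of these genes, all Myh11-positive, stand above the other 57 cells, and the highest holds mostly Hhip and Aspn.

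Most genes that separated Myh11-negative from Myh11-positive cells in the same direction in 4 of 4 libraries were thinly counted. The largest fold toward Myh11-negative cells was that of Brd9, a chromatin remodelling subunit, at 97.5 against 18.3 CPM, found in 9 and 2 cells. Calcrl, an adrenomedullin receptor of endothelium, was at 303 against 73.3 CPM in 11 and 2 cells, and Tubb2a, a tubulin, at 390 against 110 CPM in 12 and 8 cells. Toward Myh11-positive cells the largest fold was that of Ppp5c, at 0 against 82.5 CPM, found in 0 and 9 cells. It was followed by Zfp280d, at 21.7 against 119 CPM, and Trmt112, at 21.7 against 110 CPM, each in 2 and 10 cells. ERG CKO 2 held 1 Myh11-positive cell of 1098 UMIs, so agreement across all 4 libraries rests on that cell. The pericyte genes outside the rule were detected in both subsets, with Gucy1a3 detected in 78.8% and Postn in 81.8% of the Myh11-negative cells and in 92.9% and 89.3% of the Myh11-positive cells. On these measures both subsets carried the pericyte genes.

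Genes outside the rule gave the mural cells a clear profile against all other lung cells. The 12 largest folds of 682 candidate genes that were higher in 4 of 4 libraries were those of Postn, Gucy1a3, Pdzd2, Gucy1b3, Ndufa4l2, Ltbp2, Pde5a, Pcdh18, Lipg, Vtn, Kcnk3 and Nkain4. On the log2 scale with 10 CPM added, they ranged from 5.27 to 6.35. These folds describe the chosen cells and were not tested. Postn, a matricellular protein, was at 3351 CPM in the mural cells and 31.1 CPM in the rest. Gucy1a3 and Gucy1b3, the subunits of the nitric oxide receptor soluble guanylate cyclase, were at 3837 and 2437 CPM against 47.0 and 36.1 CPM in the rest. Pde5a, the phosphodiesterase that breaks down the cyclic GMP made by that receptor, was at 2348 against 42.5 CPM. The receptor and the enzyme that ends its signal were thus both among the leading genes.

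Other leading genes were of the matrix and the membrane. Pdzd2, a PDZ scaffold protein, was at 6780 CPM against 103 CPM in the rest, and Vtn, vitronectin, at 635 against 5.75 CPM. Kcnk3, the potassium channel TASK-1, was at 814 against 10.2 CPM, and Ltbp2, a latent TGF-beta binding protein family member, at 879 against 8.96 CPM. A few genes that mark pericytes in other organs were nearly absent, and were chosen after their values were seen. Rgs5 had 10 UMIs in 3 mural cells, 1 in WT 1, 0 in WT 2, 3 in ERG CKO 1 and 6 in ERG CKO 2, and was too low to be tested. Kcnj8 had 6 UMIs and Abcc9 had 8 UMIs in all. The heatmap of levels by cell gate sets these genes beside those of neighbouring cell types.

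**Figure D2:**
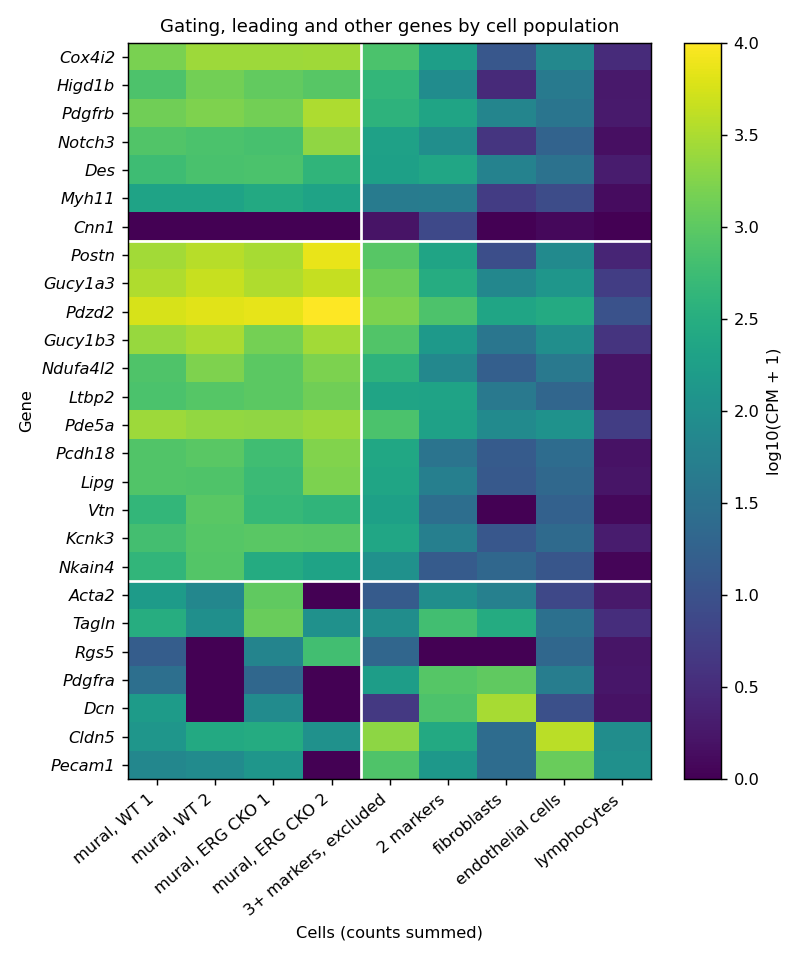
Levels as log10(CPM + 1) of the rule genes, the 12 leading genes and reference genes (rows) in the mural cells of each library, in cells with at least 3 markers that had Ptprc or Cdh5, in cells with 2 markers, and in fibroblasts, endothelial cells and lymphocytes (columns). Postn, the Gucy1 genes and Pde5a are high in all 4 mural columns and low in fibroblasts, endothelial cells and lymphocytes, and Cnn1 is at 0 in each mural column.

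Promoters are shown for the leading genes whose window holds TGGGAA, the core bound by RBPJ, the DNA-binding partner of Notch receptors, because Notch3 was among the genes of the rule and 3 of these genes belong to the nitric oxide and cyclic GMP pathway. RefSeq windows of build GRCm38.p6, from 250 bases before to 50 bases after a transcript start, were found for 8 of the 12 genes, in 10 windows. TGGGAA or its reverse complement TTCCCA, shown in capitals, occurred in 4 of these 10 windows and in 25.6% of all 32851 windows, and no other motif was searched. Gucy1a1 and Gucy1b1 are the current symbols of Gucy1a3 and Gucy1b3. The windows are chr3:82145024-82145323 on the minus strand for Gucy1a1, chr3:82074662-82074961 on the minus strand for Gucy1b1, chr3:122728908-122729207 on the plus strand for Pde5a and chr11:78498870-78499169 on the plus strand for Vtn, each written 5′ to 3′ on the strand of its gene:
Gucy1a1: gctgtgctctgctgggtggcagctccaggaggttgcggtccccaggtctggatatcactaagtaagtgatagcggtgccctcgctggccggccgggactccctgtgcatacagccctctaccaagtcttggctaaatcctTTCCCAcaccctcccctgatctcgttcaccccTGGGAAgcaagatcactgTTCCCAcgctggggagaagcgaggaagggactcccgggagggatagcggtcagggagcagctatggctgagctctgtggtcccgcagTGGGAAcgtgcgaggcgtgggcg
Gucy1b1: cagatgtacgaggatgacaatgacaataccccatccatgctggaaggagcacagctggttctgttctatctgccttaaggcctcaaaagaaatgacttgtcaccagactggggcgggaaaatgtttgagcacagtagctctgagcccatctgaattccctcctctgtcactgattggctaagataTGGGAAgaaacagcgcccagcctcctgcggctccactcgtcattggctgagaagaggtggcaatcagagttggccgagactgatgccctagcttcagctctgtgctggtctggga
Pde5a: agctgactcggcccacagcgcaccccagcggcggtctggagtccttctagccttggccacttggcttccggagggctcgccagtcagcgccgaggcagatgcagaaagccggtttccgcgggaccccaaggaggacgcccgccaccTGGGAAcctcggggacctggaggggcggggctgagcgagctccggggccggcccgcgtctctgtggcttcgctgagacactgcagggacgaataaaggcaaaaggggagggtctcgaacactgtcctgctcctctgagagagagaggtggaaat
Vtn: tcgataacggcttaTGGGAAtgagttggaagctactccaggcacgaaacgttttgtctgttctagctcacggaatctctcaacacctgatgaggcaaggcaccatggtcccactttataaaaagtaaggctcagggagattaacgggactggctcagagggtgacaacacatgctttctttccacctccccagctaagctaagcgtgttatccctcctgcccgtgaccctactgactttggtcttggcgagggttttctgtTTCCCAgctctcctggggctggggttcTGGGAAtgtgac
The Gucy1a1 window holds 4 matches, the Vtn window 3, and the Gucy1b1 and Pde5a windows 1 each. A match of 6 letters is a description of the sequence and does not show that a factor binds there.

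Cells on either side of the edge of the rule are described here without a test, since the rule genes set that edge. Of the mural cells, 17 had exactly 3 markers, 13 had 4, 15 had 5 and 16 had 6. Just outside the rule, 40 cells had 2 markers and no Ptprc or Cdh5. Cox4i2 was at 935 CPM in the cells with exactly 3 markers and at 172 CPM in those with 2, and Pdgfrb at 567 and 212 CPM. Pdgfra, the PDGF receptor of fibroblasts, was at 28.3 CPM with 3 markers and 887 CPM with 2, and Dcn, decorin of fibroblasts, at 425 and 768 CPM. Of the genes outside the rule, Pdgfra and Dcn were both higher in the cells with 2 markers.

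RNA of other cells was low but not absent. The 11 endothelial markers summed to 1392, 1393, 1642 and 1132 CPM in the mural cells of WT 1, WT 2, ERG CKO 1 and ERG CKO 2, against 16372 CPM in the endothelial cells, and Cdh5 itself is at 0 by the rule. The fibroblast markers, 11 of 12 with UMIs, summed to 2019, 1267, 1434 and 720 CPM, against 13714 CPM in the fibroblasts. Platelet markers reached 3700 CPM in ERG CKO 1, where 63 of 84 Pf4 UMIs of all mural cells lay in 1 cell. Of the defining markers, 9 of 10 for lymphocytes, 5 of 6 for mesothelium and 5 of 6 for neutrophils were at 0.

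The mural cells differed among themselves in RNA quality. Malat1, a nuclear RNA, made up under 0.1% of the UMIs in 15 of the 61 mural cells, 4 in WT 1, 4 in WT 2, 5 in ERG CKO 1 and 2 in ERG CKO 2. Those 15 cells had a median of 14.9% of their UMIs in ribosomal protein genes and 1440 UMIs per cell, against 3.99% and 3885 UMIs in the other 46. Exactly 3 markers were found in 10 of the 15 cells and in 7 of the other 46. Low Malat1 thus went together with few UMIs, a high ribosomal share and few markers, and its share of the cells was higher in the ERG CKO libraries. The grouping was made after the values were seen.

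Mural cells made up a smaller share of the ERG CKO libraries. They were 0.839% (95% Wilson interval 0.538 to 1.31) of the cells of WT 1, 1.07% (0.714 to 1.60) of WT 2, 0.484% (0.294 to 0.798) of ERG CKO 1 and 0.216% (0.0840 to 0.554) of ERG CKO 2. Both ERG CKO shares lay below both WT shares, and the group means were 0.954% ± 0.163 and 0.350% ± 0.190 (SD, n = 2), a 2.73-fold difference that was 4.42-fold without ERG CKO 1. The two-sided exact permutation test gave p = 0.333 (0.333 adjusted over 4 shares), which is the smallest value that 2 against 2 libraries allow. On the numbers of cells per gate, edgeR's quasi-likelihood test gave a log2 difference of −1.39 (SE 0.93, adjusted p = 0.419), so the difference did not pass a test. The intervals cover counting error only.

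The Myh11-negative cells were 0.442%, 0.558%, 0.258% and 0.162% of the 4 libraries, and the Myh11-positive cells 0.398%, 0.512%, 0.226% and 0.0540%. The groups did not overlap in either subset, with 2.38-fold and 3.25-fold higher means in WT, and the smallest permutation p was again 0.333. The fold of the Myh11-positive cells was 8.42 without ERG CKO 1 and 2.01 without ERG CKO 2. Of the mural cells, 47.4%, 47.8%, 46.7% and 25% were Myh11-positive, the last being 1 of 4 cells. Without ERG CKO 2 the difference in that fraction was −0.931 percentage points in place of −11.8.

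The share depended on what it was set against. Of the mural cells plus the fibroblasts, 19.8% and 36.5% of WT were mural cells, against 15.3% and 23.5% of ERG CKO, so that the groups overlapped. Fibroblasts themselves were 2.63% ± 1.09 of WT and 1.69% ± 1.40 of ERG CKO cells (SD, n = 2), with overlapping libraries. Fewer cells of a type in the lung and fewer recovered from the dissociated tissue cannot be told apart in these data. The plot of shares by library gives the values with and without the exclusion of Ptprc and Cdh5.

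**Figure D3:**
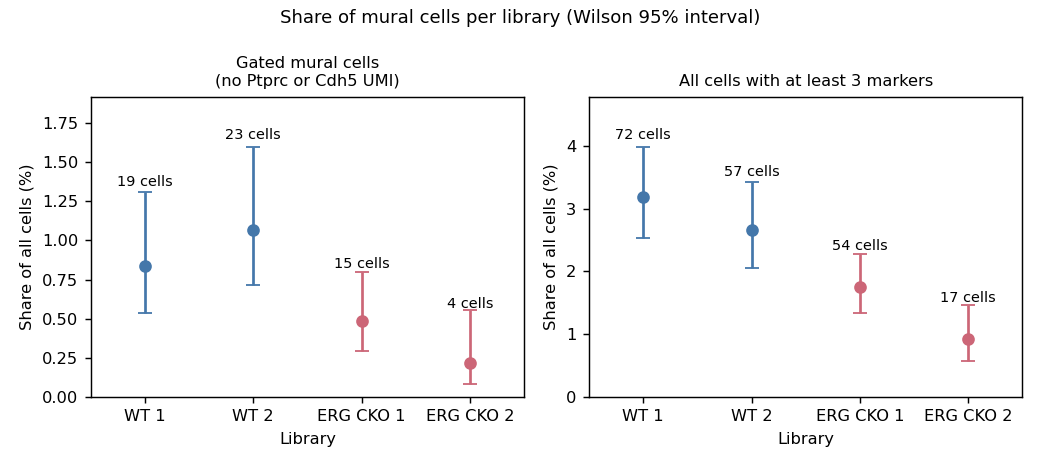
Share of mural cells among all cells of each library in percent, for the rule and for all cells with at least 3 markers whether or not they had Ptprc or Cdh5, with 95% Wilson intervals. By the rule both WT libraries (0.839% and 1.07%) lie above both ERG CKO libraries (0.484% and 0.216%), and without the exclusion they lie at 3.18% and 2.65% against 1.74% and 0.918%.

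The exclusion removed most cells that had the markers. Of 200 cells with at least 3 markers, 139 (69.5%) had a UMI of Cdh5 or Ptprc, among them 137 with Cdh5, 21 with Ptprc and 23 with exactly 1 Cdh5 UMI. The excluded cells had a median of 9457 UMIs against 2788 in the mural cells, and Scrublet called 2 of them doublets. The exclusion took 73.6%, 59.6%, 72.2% and 76.5% of the marked cells in WT 1, WT 2, ERG CKO 1 and ERG CKO 2. In WT the excluded cells had a median of 5 and 4 markers, and in both ERG CKO libraries a median of 3. The rule genes summed to 2990 and 2801 CPM in the excluded cells of WT and to 846 and 1470 CPM in those of ERG CKO. These values describe cells chosen by the same genes and were not tested.

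The comparison of ERG CKO with WT asked whether mural cells differed in mice in which Erg was targeted in the endothelium. Counts were summed over the mural cells of each library, and edgeR's quasi-likelihood test with Benjamini-Hochberg adjustment called 0 of 1147 genes (0%) at an adjusted p of 0.05. At an unadjusted p under 0.05 there were 47 genes (4.1% of those tested), and DESeq2 called 0 genes with 15 at an unadjusted p under 0.05. The libraries of the groups did not overlap for 429 genes (37.4%), 192 higher (16.7%) and 237 lower (20.7%) in ERG CKO. The median log2 fold change over all tested genes was −0.04 and the median standard error 0.57. On simulated counts with these library sizes, 4-fold changes were called for 69.4% of the changed genes and 8-fold changes for 95.5%, so a smaller change would often have been missed. Calls appeared when a single ERG CKO library was left out, with 48 of 1702 genes called without ERG CKO 1 and 31 of 1788 without ERG CKO 2, and the group was then represented by the other library alone. All log2 fold changes below are of ERG CKO over WT with their standard error, and unless stated otherwise none passed the test.

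The nitric oxide and vasoactive genes had no common direction in the 61 mural cells. Gucy1a3 was at 3341 and 4610 CPM in WT and 3305 and 4424 CPM in ERG CKO, a log2 fold change of −0.11 ± 0.38. Gucy1b3 was at 2409 and 3092 CPM in WT and 1434 and 2778 CPM in ERG CKO (−0.51 ± 0.46). Pde5a was at 2562 and 2242 CPM in WT and 2162 and 2469 CPM in ERG CKO (−0.12 ± 0.41). For all 3 genes the libraries of the groups overlapped. Pde3a, another cyclic nucleotide phosphodiesterase, was at 265 and 320 CPM in WT and 520 and 1235 CPM in ERG CKO (1.36 ± 0.58), without overlap. Of the 9 genes tested from the list of endothelin, nitric oxide and vasoactive receptors, 4 were above and 5 below 0, and the median was −0.11. The libraries did not overlap for 2 of them, both higher in ERG CKO, against 16.7% of all tested genes. Without the exclusion of Ptprc and Cdh5, 3 of 13 tested genes of this list were above and 10 below 0, with a median of −0.87.

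No tested gene of the pericyte list separated the groups. Of 14 of the 22 genes tested, 3 were above and 11 below 0, and the median was −0.14. The libraries of the groups overlapped for all 14, while they did not overlap for 37.4% of all tested genes. Postn was at 2743 and 3663 CPM in WT and 2993 and 7305 CPM in ERG CKO (0.57 ± 0.46). Vtn was at 446 and 961 CPM in WT and 478 and 412 CPM in ERG CKO (−0.64 ± 0.59). Summed over the list, the 22 pericyte genes were at 16081 and 20891 CPM in WT and 14881 and 25206 CPM in ERG CKO, so the spread within each group was wider than the difference between them.

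Growth factor signals between mural cell and endothelium were thinly covered. Of the PDGF and angiopoietin genes, 4 were tested, 1 above and 3 below 0, with a median of −0.13, and Pdgfb had no UMI in the mural cells. Pdgfa, a PDGF ligand, was at 362 and 446 CPM in WT and 270 and 1235 CPM in ERG CKO (0.52 ± 0.72). Angpt1, the mural ligand of the endothelial receptor Tie2, was at 376 and 543 CPM in WT and 333 and 720 CPM in ERG CKO (−0.04 ± 0.57). Nrp1, a co-receptor for VEGF and semaphorins, was at 237 and 251 CPM in WT, at 270 CPM in ERG CKO 1 and without a UMI in ERG CKO 2. No direction was apparent in these genes.

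Among the Notch genes, 1 target was lower in both ERG CKO libraries. Hes1, a transcriptional repressor induced by Notch, was at 724 and 655 CPM in WT and 229 and 103 CPM in ERG CKO (−1.82 ± 0.60, adjusted p = 0.907 by edgeR), without overlap. Notch1 was at 265 and 167 CPM in WT and 353 and 617 CPM in ERG CKO (0.95 ± 0.52), and Nrarp, a feedback inhibitor of Notch, at 237 and 292 CPM against 166 and 617 CPM (0.05 ± 0.64). Of 5 Notch genes tested, 3 were above and 2 below 0, with a median of 0.05. Notch3, a gene of the rule, was at 808 and 738 CPM against 686 and 2160.5 CPM, so the receptors and the target Hes1 did not lie in 1 direction.

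The transcription factors of lung mural cells were present in each library. Tbx2 was at 905 and 1240 CPM in WT and 977 and 1132 CPM in ERG CKO (−0.09 ± 0.48), and Ebf1, which marks pericytes, at 975 and 1253 CPM against 727 and 1132 CPM (−0.38 ± 0.49). Nr2f2, a factor of veins and mesenchyme, was at 501 and 905 CPM against 582 and 720 CPM, and Tbx4, a factor of lung mesenchyme, at 334 and 515 CPM against 353 and 1132 CPM. These 4 genes overlapped between the groups. Klf4, a factor that represses contractile genes and is also an immediate early gene, was at 432 and 557 CPM in WT and 125 and 103 CPM in ERG CKO (−2.03 ± 0.57). Of 10 factors tested, 3 were above and 7 below 0, with a median of −0.26.

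Ion channel and contractile genes lay mostly above 0, with medians smaller than the standard error of a gene. Kcnk3 was at 640 and 891 CPM in WT and 935 and 926 CPM in ERG CKO (0.25 ± 0.49), and Trpc6, a calcium-permeable channel, at 362 and 669 CPM against 395 and 617 CPM (−0.17 ± 0.58). Atp2b4, a calcium pump, was at 376 and 306 CPM against 353 and 720 CPM, and Atp1b2, a sodium pump subunit, at 69.6 and 125 CPM against 187 and 617 CPM (1.5 ± 0.69). Of 5 channel genes tested, 4 were above 0, with a median of 0.25. Of 11 contractile genes tested, 9 were above and 2 below 0, with a median of 0.28.

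The 11 tested contractile genes overlapped between the groups except for 2, both higher in ERG CKO, against 16.7% of all tested genes. These were Crip1 and Flna, a filamin (Flna chosen after its values were seen, 0.66 ± 0.59). Crip1, a LIM protein, was at 1183 and 1379 CPM in WT and 1621 and 1543 CPM in ERG CKO (0.27 ± 0.45). Ppp1r14a, an inhibitor of myosin phosphatase, was at 808 and 1574 CPM against 1247 and 617 CPM, Myl6, a myosin light chain, at 794 and 905 CPM against 1330 and 617 CPM, and Cald1, caldesmon, at 933 and 863 CPM against 1226 and 617 CPM. Tagln was at 306 and 97.5 CPM in WT and 1205 and 103 CPM in ERG CKO (1.94 ± 0.90). Acta2 was at 153 and 69.6 CPM in WT and 1060 CPM in ERG CKO 1, where 39 UMIs lay in 1 cell, and had no UMI in ERG CKO 2, and it was not tested. The high values of both genes lay in ERG CKO 1, in which 1 cell held 39 UMIs of Acta2 and 21 of Tagln and another 12 and 34, of 51 and 58 in that library.

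Basement membrane genes had a fold change above 0 for 10 of 10 genes tested, with a median of 0.53, while 547 of the 1147 tested genes were above 0. The libraries did not overlap for 6 of the 10, all higher in ERG CKO, against 16.7% of all tested genes. Col4a1, a chain of collagen IV, was at 1392 and 1267 CPM in WT and 1517 and 5247 CPM in ERG CKO (1.18 ± 0.59), and its partner Col4a2 at 1058 and 1128 CPM against 1102 and 2160.5 CPM (0.44 ± 0.50). Sparc, a collagen-binding protein, was at 2576 and 3468 CPM in WT and 3471 and 4938 CPM in ERG CKO (0.40 ± 0.39). Itgb1, the beta-1 integrin that binds laminin and collagen, was at 835 and 836 CPM against 1309 and 1955 CPM (0.86 ± 0.47). The highest values were those of ERG CKO 2, the library with 4 mural cells. Summed over the list, the 17 genes were at 8632 and 9025 CPM in WT and 10496 and 18827 CPM in ERG CKO. In the fibroblasts the sums of the groups overlapped (4929 and 3829 against 4505 and 2828 CPM). The endothelial sums were higher in ERG CKO without overlap, at 3121 and 2297 against 3460 and 3257 CPM. Those of the excluded cells with at least 3 markers were lower without overlap, at 6229 and 5334 against 5101 and 4174 CPM.

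Interstitial matrix genes gave 10 of 14 above 0, with a median of 0.49. Spp1, the matricellular protein osteopontin, was at 8228 and 6810.5 CPM in WT and 4988 and 4733 CPM in ERG CKO (−0.68 ± 0.33). Timp3, an inhibitor of matrix metalloproteinases, was at 794 and 460 CPM in WT and 3803 and 1646 CPM in ERG CKO (2.13 ± 0.60), and 84 of its UMIs lay in 1 cell. Counted without the cell that held most of its UMIs, Timp3 differed by 1.53. Neither gene overlapped between the groups, and they lay in opposite directions.

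Of the TGF-beta and BMP genes, 7 were tested, 4 above and 3 below 0, with a median of 0.41. Ltbp2 was at 738 and 891 CPM in WT and 977 and 1337 CPM in ERG CKO. Id3, a target of BMP signalling, was at 1072 and 1309 CPM against 873 and 514 CPM, and Eng, a co-receptor for BMP ligands, at 390 and 585 CPM against 436 and 514 CPM. Thbs1, thrombospondin 1, was at 320 and 13.9 CPM in WT and 1496 CPM in ERG CKO 1, with 61 UMIs in 1 cell, and had no UMI in ERG CKO 2. The group thus showed no common direction.

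The immediate early genes, which respond within minutes to stimuli and to tissue dissociation, had fold changes below 0 in most cases. Of 18 genes tested, 15 were below and 3 above 0, with a median of −0.93, and the libraries did not overlap for 12 genes that were lower and 1 that was higher in ERG CKO, against 20.7% and 16.7% of all tested genes. Fos was at 3564 and 3691 CPM in WT and 1559 and 823 CPM in ERG CKO (−1.56 ± 0.48, adjusted p = 0.907 by edgeR). Fosb was at 1768 and 1407 CPM against 249 and 309 CPM, from 127, 101, 12 and 3 UMIs (−2.59 ± 0.55, adjusted p = 0.647 by edgeR). Jun was at 3049 and 2688 CPM against 1351 and 1749 CPM (−0.97 ± 0.43), and Jund at 1935 and 1950 CPM against 644 and 514 CPM (−1.73 ± 0.49). For these 4 genes each ERG CKO library lay below each WT library. Junb and Egr1 overlapped, at 2172 and 2604 against 2702 and 617 CPM and at 2798 and 2089 against 2203 and 823 CPM, with 110 Junb UMIs in 1 cell. None of these differences passed the test over all genes. Among mural cells with at least 4 markers, 23 of 790 genes were called, 19 of them lower in ERG CKO. Fos (−2.59), Fosb (−6.25), Jund (−2.56) and Klf4 (−4.32) were among these 19. That setting kept only 9 cells of ERG CKO 1 and 3 of ERG CKO 2, beside 13 of WT 1 and 19 of WT 2. It left out cells with exactly 3 markers, which held 6 and 5 Fosb UMIs in ERG CKO 1 and 3 in ERG CKO 2. The Fosb value there thus rests on 1 ERG CKO UMI, found in a cell of ERG CKO 1.

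Other cells of the same lungs shared the direction of the immediate early genes in part. Summed over the 20 genes, the mural cells were at 24657 and 25724 CPM in WT and 15983 and 7407 CPM in ERG CKO. The fibroblasts were at 23094 and 22682 CPM against 14074 and 14293 CPM, and the endothelial cells at 25461 and 28127 CPM against 22127 and 22398 CPM. The lymphocytes, at 9473 and 10693 CPM against 9497 and 11479 CPM, overlapped between the groups. Immediate early genes made up 2% or more of the UMIs in 8 of 19 mural cells of WT 1, 12 of 23 of WT 2, 3 of 15 of ERG CKO 1 and 1 of 4 of ERG CKO 2. Cells under 0.1% Malat1 had a median of 0.339% immediate early UMIs against 2.05% in the others, and they were a larger share of the ERG CKO cells. ERG CKO 2 went the other way, with 3.63% in its 2 cells under 0.1% Malat1 and 0.237% in its 2 others. With those 15 cells left out, the sums were 27410 and 28114 CPM in WT and 17292 and 2645 CPM in ERG CKO, still without overlap, and 0 of 969 genes were called with 38 at an unadjusted p under 0.05. The part of cell handling in this difference was not tested.

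**Figure D4:**
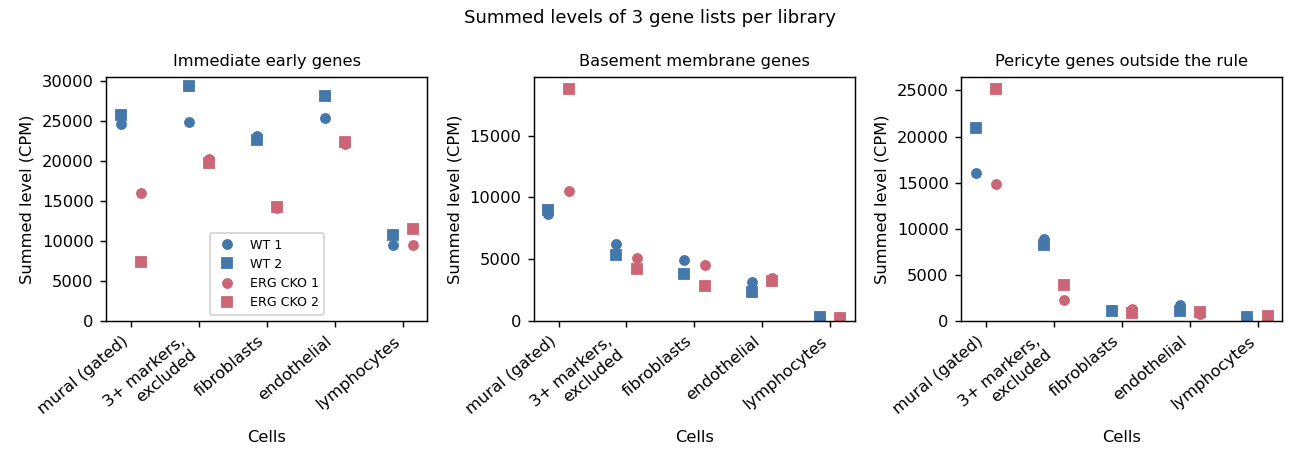
Summed CPM of the immediate early, basement membrane and pericyte gene lists in each library (points) for the mural cells, the excluded cells with at least 3 markers, fibroblasts, endothelial cells and lymphocytes. Immediate early sums of the mural cells are 24657 and 25724 CPM in WT and 15983 and 7407 CPM in ERG CKO, and the pericyte genes of the excluded cells are 8919 and 8259 CPM in WT and 2242 and 3888 CPM in ERG CKO.

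Interferon-stimulated and inflammatory genes showed no common shift. Of 7 interferon genes tested, 4 were above and 3 below 0, with a median of 0.32. Ifitm3, a membrane protein that restricts viral entry, was at 1685 and 2980.5 CPM in WT and 2515 and 1955 CPM in ERG CKO, and H2-D1, a class I antigen-presenting molecule, at 738 and 1017 CPM against 1309 and 823 CPM. Of the inflammatory and senescence genes, 3 were tested with a median of −0.23, and Gpx3, a secreted glutathione peroxidase, was at 961 and 1240 CPM against 1039 and 823 CPM. Ccl2 and Cdkn2a had no UMI in the mural cells. The plot of fold changes by gene list shows these lists beside the others.

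Genes of smallest p in either direction are given as values, since none was called. Higher in ERG CKO was Itga6, a laminin-binding integrin, at 111 and 83.6 CPM in WT and 416 and 309 CPM in ERG CKO (1.96 ± 0.49). Plxnb1, a semaphorin receptor, was at 55.7 and 13.9 CPM against 249 and 309 CPM, and Col6a3, a collagen VI chain, at 69.6 and 0 CPM against 187 and 823 CPM. Ctsc, a lysosomal protease, was at 27.8 and 41.8 CPM against 187 and 412 CPM, and the transcripts 1810058I24Rik and 4930523C07Rik had fold changes of 1.55 ± 0.48 and 1.51 ± 0.53. These genes, with Timp3, were each detected in 8 to 37 of the 61 mural cells.

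Lower in ERG CKO were Fosb, Klf4, Jund and Fos, given above, and 4 further genes. The transcript Gm26802 had 19 and 23 UMIs in WT and none in either ERG CKO library. Lef1, a transcription factor of the Wnt pathway, was at 181 and 251 CPM in WT, 20.8 CPM in ERG CKO 1 and had no UMI in ERG CKO 2. Gng5, a G protein subunit, was at 585 and 432 CPM against 104 and 206 CPM (−2.0 ± 0.61), and Sertad1, a transcriptional co-regulator, at 306 and 320 CPM in WT and 83.1 CPM in ERG CKO 1, with no UMI in ERG CKO 2. Choosing genes by their p favours those whose groups do not overlap, so their lack of overlap is no further evidence.

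Within the subsets no gene was called either. In the Myh11-negative cells edgeR's quasi-likelihood test called 0 of 343 genes (0%), with 7 (2.04%) at an unadjusted p under 0.05 and 3 by DESeq2. In the Myh11-positive cells it called 0 of 510 genes (0%), with 17 (3.33%) at an unadjusted p under 0.05 and 3 by DESeq2, and DESeq2 called 0 in both. The interaction of genotype with subset was called for 0 of 713 genes (0%), with 7 (0.982%) at an unadjusted p under 0.05. No difference between the subsets in their response was thus called, and the size of difference that this fit could find was not tested.

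Set against the fibroblasts of the same libraries, the response of the mural cells differed for 1 of 2150 genes (0.0465%). That gene was Nop58, a nucleolar protein that guides RNA methylation, with a difference of log2 fold changes of 4.77 (adjusted p = 0.0499 by edgeR), and 61 genes (2.84%) had an unadjusted p under 0.05. Nop58 had 1, 1, 15 and 1 UMIs in the mural cells of WT 1, WT 2, ERG CKO 1 and ERG CKO 2, in 1, 1, 5 and 1 cells, and 61, 29, 20 and 9 UMIs in the fibroblasts. The call thus rested on the 15 UMIs of ERG CKO 1, and without that library Nop58 did not pass. In fibroblasts alone 0 of 4215 genes (0%) were called, with 133 (3.16%) at an unadjusted p under 0.05. In endothelial cells 24 of 11716 genes (0.205%) were called, 17 higher (0.145%) and 7 lower (0.0597%) in ERG CKO.

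Without the exclusion of Ptprc and Cdh5, a setting added after seeing the data, the 200 cells gave 18 called genes of 7214 (0.25%), 9 higher (0.125%) and 9 lower (0.125%) in ERG CKO. Among the lower genes were pericyte genes, in cells that mural genes had chosen. The cells that the exclusion removes had a median of 5 and 4 markers in WT and of 3 in both ERG CKO libraries. The part of that difference in these calls was not tested. Pde5a was at 1284 and 1329 CPM in WT and 481 and 489 CPM in ERG CKO (−1.39 ± 0.22, adjusted p = 0.0455 by edgeR). Spp1 was at 5584 and 6009 CPM against 1400 and 1474 CPM (−1.97 ± 0.19), and Vtn at 326 and 471 CPM against 63.3 and 85.1 CPM (−2.44 ± 0.31). Trpc6 (−1.97), Ebf1 (−1.85) and Rgs4, a regulator of G protein signalling (−2.49), were also lower. Of 19 pericyte genes tested in these cells, 15 were below and 4 above 0, with a median of −1.39 (−1.62 over the 14 genes tested in the mural cells), and 4 were called. In the Myh11-negative cells without the exclusion, 45 of 5230 genes (0.86%) were called, 13 higher (0.249%) and 32 lower (0.612%). The 32 lower genes include Higd1b (−1.52), a gene that chose these cells, so its call is no result. Gucy1b3 (−2.23) and Gucy1a3 (−2.20) were also among them. In the Myh11-positive cells 0 of 4378 genes (0%) were called, with 396 (9.05%) at an unadjusted p under 0.05.

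The 9 higher genes in the 200 cells included Cd34 and Emcn, which are known from endothelium. Cd34, a sialomucin of endothelium and progenitors, was at 53.1 and 50.3 CPM in WT and 290 and 266 CPM in ERG CKO (2.46 ± 0.26). Emcn, an endothelial sialomucin, was at 83.5 and 136 CPM against 568 and 378 CPM (2.19 ± 0.32). The largest fold changes were those of Cxcl9 (9.37), C4b (7.10) and Cpxm1 (4.05). The complement genes C7 and C3 differed by 2.97 and 2.64, and Ifi27l2a, an interferon-stimulated gene, by 2.85. Of 7 fibroblast markers tested, 6 were above and 1 below 0 (median 0.81), and of 11 endothelial markers 7 were above and 4 below 0 (median 0.08). The endothelial markers summed to 9844 and 8724 CPM in WT and 10974 and 7453 CPM in ERG CKO, and erythroid markers to 8780 CPM in ERG CKO 1 against 34.9 CPM or less in the other libraries. The rule genes themselves summed to 3241 and 3768 CPM in WT and 1269 and 1889 CPM in ERG CKO. In the 61 mural cells, in which no gene was called, Pde5a, Vtn and Trpc6 differed by −0.12, −0.64 and −0.17. In the gated endothelial cells Cd34 differed by 1.19, Emcn by 1.57 and Ifi27l2a by 3.34, and Vtn, Rgs4, Spp1 and Trpc6 by −2.78, −2.76, −2.24 and −1.89, and of these only Emcn was called there (adjusted p = 0.0473 by edgeR). The part of cells with both endothelial and mural RNA in the calls of the 200 cells was not tested.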

How the data were processed

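The authors deposited 1 table of raw UMI counts for 20076 genes by 9363 cells, made with Cell Ranger 3.1.0 on mm10 per the submitters' processing notes. The study's own cell filter was not applied. Cells were assigned to libraries by the start of their names and to groups by the genotype labels. The members and lists were chosen with earlier results of these data known. Fibroblasts (3 of 8 markers), endothelial cells (3 of 6) and lymphocytes (2 of 6, with Ptprc) were gated likewise. Counts were summed per library and tested with edgeR 4.0.16 (quasi-likelihood, TMM, filterByExpr, an adjusted p of 0.05), with DESeq2 1.42.0 as alternative, after tests on simulated data. With 2 mice a group, p-values measure the spread between these mice. Named genes were the rule genes, the 4 genes of highest mean CPM in each list, genes called in any fit, the 8 genes of smallest p in each direction with a mean of 30 CPM, and the 12 leading genes. Doublets were called with Scrublet in scanpy 1.11.5, which marked 0.641% of cells. Differences between replicates 1 and 2 did not correlate between the groups over the mural sums (r = 0.013 over 1147 genes). With 4 mural cells in ERG CKO 2 this cannot exclude a pairing, and replicate number went with Xist in both groups. The main fits left replicate number out, and a fit with it as a block is given below. Alternatives covered filters, scaling, markers, exclusion genes, thinning to 1000 UMIs and single libraries. Myocd and Adra1d were not analysed here. A gene that the naming rule selects is not reported here. The median depth was 4748 UMIs per cell.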

Additional observations from a re-analysis of the deposited data

Results flagged for a closer look

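Nop58 was the single gene whose response differed between mural cells and fibroblasts, with a difference of log2 fold changes of 4.77 (adjusted p = 0.0499 by edgeR, ERG CKO over WT, mural cells minus fibroblasts). Of its 18 UMIs in the mural cells, 15 came from 5 cells of ERG CKO 1. The difference was 2.57 without ERG CKO 1 (adjusted p = 0.636 by edgeR) and 5.25 without ERG CKO 2 (adjusted p = 0.000351), and it did not pass in 5 of 8 alternatives.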

How the results depend on the processing

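The lower share of mural cells in ERG CKO kept its direction in all 17 alternatives tried, and in none could the permutation test pass. The fraction of Myh11-positive cells reversed, to 0.294 percentage points after thinning and to 2.67 without the exclusion. The count of 0 genes called in the mural cells stayed at 0 in 13 of 19 alternatives, became 23 with at least 4 markers and 18 without the exclusion, and ranged from 1 to 48 when 1 library was left out. In Myh11-negative cells it became 45 without the exclusion and ranged from 0 to 51 with 1 library left out. In Myh11-positive cells it became 11 with at least 4 markers, 1 with at least 2 markers, 9 with fibroblast-marked cells left out, 2 when each gene was counted without its highest cell and 9 without the cells of 10 or more UMIs of Acta2, Tagln, Hhip and Aspn, and ranged from 0 to 7 with 1 library left out. That subset could not be fitted without the cells low in Malat1, which left ERG CKO 2 empty. The interaction by subset ranged from 0 to 8 genes with 1 library left out. The interaction with fibroblasts gave 0 genes without a filter and 0 with at most 10% mitochondrial UMIs, and from 0 to 16 with 1 library left out. Where ERG CKO 1 or ERG CKO 2 was left out, the remaining mouse stood for its group and was assumed to vary like the others. Itga6 (−0.030) and Gng5 (0.053) reversed without the exclusion, and 1810058I24Rik (−0.072) when counted without its highest cell. The replicate block called 0 genes in the mural cells and in both subsets. Over the genes tested in the mural cells, the median of the immediate early list was below 0 in 19 of 19 alternatives (−2.63 to −0.49), that of the basement membrane list above 0 in 18 of 19 (−0.18 without the exclusion), and the median of all genes was −0.50 without ERG CKO 1. The causes were not tested.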
